A study of Mus musculus with 9 samples.

Results

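Dbp, Tef, Hlf, Nfil3, Ciart, Bhlhe40, Bhlhe41 and Rora, a set of 8 transcription regulators that the circadian clock controls, were followed in whole subcutaneous fat of mice with an endothelial knockout of AGO1. The 8 genes were listed by name for their place in the clock, with earlier results of these data known. All were found among the 35071 genes to which the deposited transcripts were assigned. RNA-seq was done on 9 libraries in 3 genotype groups of 3: endothelial AGO1 knockouts labelled Homo KO, endothelial AGO1 knockouts labelled Hete KO, and wild-type (WT) littermates. All were C57BL/6 mice aged 24 weeks, and the study asked which molecular changes accompany the metabolic phenotype of the knockouts. AGO1 is an Argonaute protein, which binds microRNAs. The sources used here do not give the driver of the knockout, sex, diet, sequencing batch or the time of day at which tissue was taken. Nothing in the labels says that fat was taken at matched circadian times, so time of day and genotype cannot be told apart for genes with a daily rhythm.

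In the clock, CLOCK and its partner BMAL1 (gene Arntl) bind E-boxes and switch on their own repressors, the Per and Cry genes, together with output regulators. Dbp, Tef and Hlf encode the PAR-bZIP activators, which bind D-boxes and carry the rhythm to further genes, and NFIL3 represses from the same D-boxes. CIART, BHLHE40 and BHLHE41 repress at E-boxes, while RORA activates at ROR elements, where the NR1D proteins repress. NR1D1 represses Nfil3 and Arntl in this way.

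The upstream sequences of the members that hold a clock motif are shown because these motifs are the ones through which the clock reaches its outputs. They are from RefSeq on GRCm38.p6, and each is the 250 bases before an annotated start, written 5' to 3' on the gene's strand. RefSeq promoters matched 7 of the 8 members, all but Bhlhe40, with 8 promoters in all. Both strands of a window of 300 bases, 250 before and 50 after the start, were searched. Capitals mark the E-box CACGTG, and in Nfil3 the reverse complement of the ROR core site AGGTCA, which there is part of the longer TAGGTCA.
Ciart (chr3:95882229-95882478, minus strand): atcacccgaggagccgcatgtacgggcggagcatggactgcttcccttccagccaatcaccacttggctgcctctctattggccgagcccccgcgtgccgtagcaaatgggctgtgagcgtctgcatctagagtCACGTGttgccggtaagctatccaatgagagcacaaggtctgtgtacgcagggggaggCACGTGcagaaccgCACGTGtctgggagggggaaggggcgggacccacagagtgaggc
Tef, upstream start (chr15:81802423-81802672, plus strand): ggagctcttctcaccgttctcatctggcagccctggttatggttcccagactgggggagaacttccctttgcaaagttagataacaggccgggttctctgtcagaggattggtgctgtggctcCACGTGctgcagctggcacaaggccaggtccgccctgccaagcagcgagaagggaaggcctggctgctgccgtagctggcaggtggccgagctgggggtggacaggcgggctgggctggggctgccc
Tef, downstream start (chr15:81811164-81811413, plus strand): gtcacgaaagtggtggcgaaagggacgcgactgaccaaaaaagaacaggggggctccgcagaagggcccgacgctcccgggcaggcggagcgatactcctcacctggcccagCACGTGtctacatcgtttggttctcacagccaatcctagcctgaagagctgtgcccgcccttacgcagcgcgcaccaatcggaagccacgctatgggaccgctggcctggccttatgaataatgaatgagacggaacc
Bhlhe41 (chr6:145865421-145865670, minus strand): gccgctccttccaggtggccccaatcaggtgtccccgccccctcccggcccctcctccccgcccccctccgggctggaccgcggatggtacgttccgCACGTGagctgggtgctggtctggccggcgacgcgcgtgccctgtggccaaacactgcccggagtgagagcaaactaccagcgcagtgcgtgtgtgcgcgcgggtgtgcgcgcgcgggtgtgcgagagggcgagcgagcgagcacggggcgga
Nfil3 (chr13:52981040-52981289, minus strand): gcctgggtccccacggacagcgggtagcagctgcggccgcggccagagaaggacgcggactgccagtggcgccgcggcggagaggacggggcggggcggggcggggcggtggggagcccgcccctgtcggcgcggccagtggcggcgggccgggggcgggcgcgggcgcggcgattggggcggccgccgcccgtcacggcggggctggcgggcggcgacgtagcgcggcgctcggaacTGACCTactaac

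Ciart held 3 E-boxes, with first bases at -116, -58 and -44 counted from the start, and each Tef promoter held 1, at -127 and -138. Bhlhe41 held 1, at -153. The windows of Dbp, Hlf and Rora held neither an E-box nor AGGTCA, so their sequences are not shown. An E-box was found in 7.15% of 32851 RefSeq promoters, and 3 or more in 0.0883% of them. TAGGTCA stood at -12 in Nfil3 and in 2.61% of all promoters, and AGGTCA in 16.3%. The D-box letters TTATGTAA and TTACGTAA were in none of the 8 member promoters, against 0.938% and 0.119% of all promoters. These matches describe letters in a window and say nothing of binding.

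Libraries held between 20843427 and 28252001 estimated counts, and levels are normalized CPM (counts scaled to library size) unless TPM, which is scaled to transcript length, is named. Ago1 was measured first as the targeted gene. It had 62.2, 58.6 and 25.8 CPM in Homo KO and 51.2, 59.7 and 60.1 CPM in Hete KO, against 69.9, 63.8 and 63.4 CPM in WT. All 6 KO libraries lay below WT in CPM, as for 6.06% of all genes tested. The difference did not pass edgeR's quasi-likelihood test (log2 fold change -0.32, SE 0.23, adjusted p = 0.429). In TPM the groups overlapped, at 7.64 to 20.4 in Homo KO, 17.6 to 18.45 in Hete KO and 15.8 to 25.96 in WT. Whole fat also holds Ago1 from cells that are not endothelial. No adipocyte or endothelial marker of 12 each was at 0 in any library. The 18 skeletal muscle markers took 3.17% of the counts in Hete KO 2, 1.26% in WT 1 and 1.19% in WT 2, and at most 0.157% in any other library. The 18 liver markers took 0.158% in WT 2 and 0.142% in WT 3 and at most 0.0219% elsewhere. The 10 macrophage markers took 0.0592 to 0.0953% in Homo KO and 0.0440 to 0.0666% in Hete KO, against 0.0880 to 0.135% in WT. In bulk tissue, fewer cells of a type and less RNA per cell cannot be told apart.

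Of the 8 regulators, Nfil3 alone passed edgeR's test when both KO groups were set against WT, and it was lower. Hlf and Ciart were higher in every KO library than in any WT library without passing the test. Dbp, Tef and Bhlhe41 had smaller fold changes above WT with overlapping libraries, and Rora and Bhlhe40 lay close to WT. With each KO group on its own against WT, none of the 8 passed. Of 17968 genes tested, 2.34% were called with both KO groups against WT, 1.52% lower and 0.824% higher. In Hete KO against WT 0.417% were called, 0.15% higher and 0.267% lower, and in Homo KO against WT and in Homo KO against Hete KO 0%. The comparisons with WT share the same 3 WT libraries, so they are not independent of each other.

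**Figure D1:**
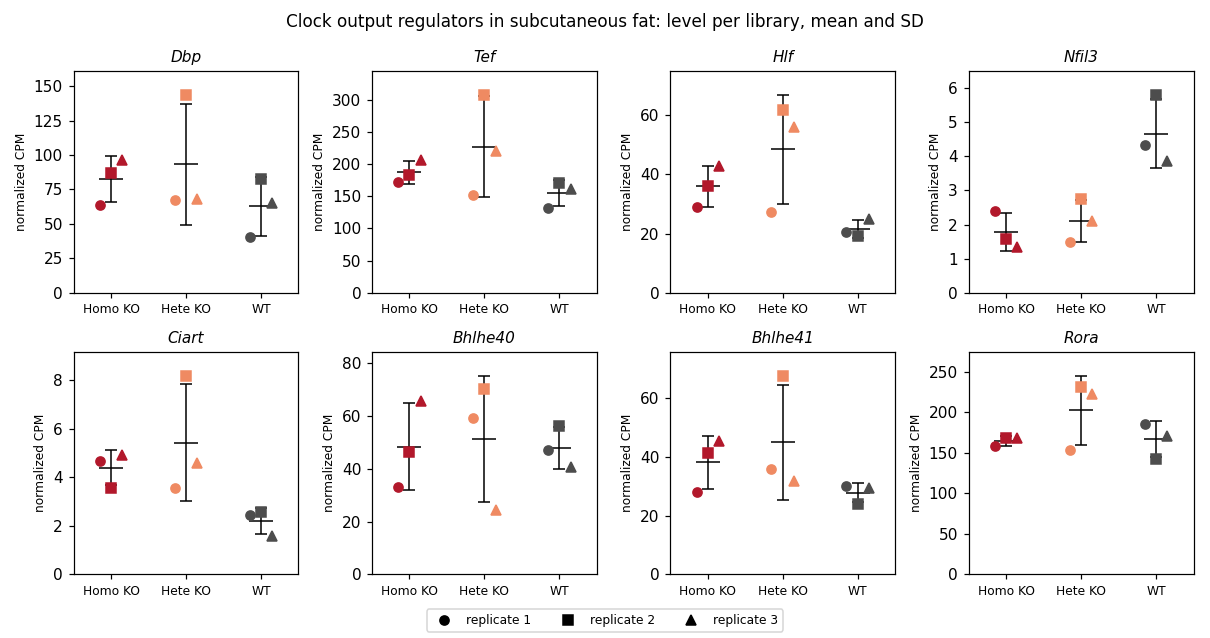
Normalized CPM of the 8 regulators in each library, on linear axes that start at 0, with Homo KO left, Hete KO in the middle and WT right; points are libraries, and bars show the mean and SD over 3 libraries. Nfil3 lies below WT in all 6 KO libraries, Hlf and Ciart lie above WT in all 6, and Hete KO 2 is the highest library for 7 of the 8 genes.

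Dbp, on chromosome 7 (45705088 to 45710203, plus strand; GENCODE M21, GRCm38), encodes the best known of the PAR-bZIP activators and is a direct target of CLOCK and BMAL1. It had 64.0, 86.7 and 96.4 CPM in Homo KO and 67.3, 143.9 and 68.3 CPM in Hete KO, against 40.5, 82.9 and 64.8 CPM in WT. All groups overlapped, and Hete KO 2 stood far above the rest. The log2 fold change of both KO groups over WT was 0.48 (95% interval -0.17 to 1.14), with an adjusted p of 0.356 in edgeR. Without Hete KO 2 it was 0.24, and that of Hete KO over WT was 0.10 in place of 0.57. Without WT 1 these values were 0.26 and 0.36.

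Tef, on chromosome 15 (81802421 to 81826863, plus strand), encodes another PAR-bZIP activator, and its 2 promoters with an E-box each are printed above. It had 171.7, 183.6 and 206.9 CPM in Homo KO and 152.5, 308.3 and 221.2 CPM in Hete KO, against 132.0, 170.3 and 162.1 CPM in WT. Each Homo KO library was above each WT library, while Hete KO 1 lay within the WT range. The log2 fold change of both KO groups over WT was 0.41 (interval -0.02 to 0.85; edgeR adjusted p = 0.242). Tef was 0.55 higher on the log2 scale in Hete KO than in WT, and 0.26 higher without Hete KO 2, where the value of both KO groups was 0.27.

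Hlf, on chromosome 11 (90336536 to 90390895, minus strand), encodes the last of the PAR-bZIP activators. It had 29.1, 36.1 and 42.8 CPM in Homo KO and 27.4, 61.9 and 56.2 CPM in Hete KO, against 20.4, 19.2 and 24.9 CPM in WT. The WT libraries were close to each other and all 6 KO libraries lay above them. Hlf averaged 42.2 ± 14.2 CPM in the KO libraries (SD, n = 6) and 21.5 ± 2.99 CPM in WT (SD, n = 3). The log2 fold change was 0.96 (SE 0.25, interval 0.41 to 1.51), a 1.94-fold difference, with an unadjusted p of 0.00306 and an adjusted p of 0.0669 in edgeR. It was 0.74 in Homo KO and 1.17 in Hete KO over WT, with edgeR adjusted p of 0.243 and 0.0696. DESeq2, run as an alternative, called it in both KO groups against WT (adjusted p = 0.00131) and in Hete KO against WT (0.000607), not in Homo KO against WT (0.0915).

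Nfil3, on chromosome 13 (52967209 to 52981073, minus strand), encodes the repressor that shares D-boxes with the PAR-bZIP activators. It had 2.40, 1.57 and 1.36 CPM in Homo KO and 1.48, 2.74 and 2.09 CPM in Hete KO, against 4.34, 5.81 and 3.85 CPM in WT. Every KO library lay below every WT library. These levels rest on few reads: 33 to 53 estimated counts in Homo KO and 40 to 65 in Hete KO, against 104 to 145 in WT.

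Nfil3 averaged 1.94 ± 0.559 CPM in the KO libraries (SD, n = 6) and 4.67 ± 1.02 CPM in WT (SD, n = 3). With both KO groups against WT it fell by 1.27 on the log2 scale (SE 0.28, 95% interval -1.89 to -0.66; edgeR adjusted p = 0.0477), lower in 6 of 6 KO libraries. The fold of KO over WT was 0.414 (interval 0.271 to 0.634). Its log2 fold change was -1.39 in Homo KO and -1.15 in Hete KO over WT, and neither passed edgeR alone (adjusted p = 0.162 and 0.102). DESeq2 called it in each (0.0178 and 0.0310) and in both together (0.00324).

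The edgeR call of Nfil3 lies near the threshold. It held in 6 of 21 alternative settings and, of the 9 fits that left out 1 library, in the 1 without Hete KO 1. Over those 9 fits the log2 fold change was -1.40 to -1.07 and the adjusted p 0.0459 to 0.199, so that each of the other 8 libraries ended the call when left out. The libraries with muscle or liver transcripts include all 3 WT libraries. WT 3, with liver transcripts but little muscle RNA, had 3.85 CPM, and WT 1, with muscle transcripts but little liver RNA, had 4.34 CPM. As no WT library was low in both, these values do not separate muscle and liver RNA from genotype. With the muscle and liver levels as covariates the log2 fold change was -0.80 (edgeR adjusted p = 0.514). The macrophage list, 10 of 10 genes below WT on the fold change and 3 called lower in both KO groups (1.52% of all genes), moved in the same direction. Its part in the Nfil3 result was not tested.

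**Figure D2:**
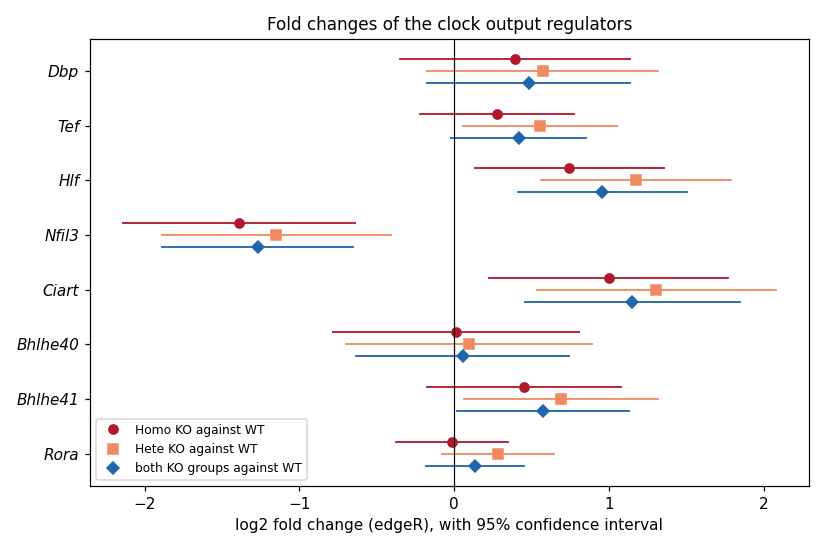
Log2 fold change of each regulator for each KO group and for both together over WT, with 95% intervals from the edgeR fit; the vertical line marks no difference. Nfil3 lies at -1.39 in Homo KO and -1.15 in Hete KO, on the other side of 0 from Hlf (0.74 and 1.17) and Ciart (0.997 and 1.31).

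Ciart, on chromosome 3 (95878503 to 95882251, minus strand), encodes a repressor of CLOCK and BMAL1, and its promoter holds the 3 E-boxes printed above. It had 4.67, 3.57 and 4.93 CPM in Homo KO and 3.56, 8.18 and 4.57 CPM in Hete KO, against 2.46, 2.57 and 1.57 CPM in WT. All 6 KO libraries were above all WT libraries, and Hete KO 2 was the highest. The estimated counts were low, 75 to 120 in Homo KO and 94 to 194 in Hete KO, against 44 to 64 in WT. The log2 fold change of both KO groups over WT was 1.15 (SE 0.31, interval 0.46 to 1.85), with an unadjusted p of 0.00419 and an adjusted p of 0.0742 in edgeR and of 0.00972 in DESeq2.

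On the TPM scale the Ciart groups overlapped, at 8.75, 7.64 and 4.98 TPM in Homo KO and 4.92, 11.4 and 9.48 TPM in Hete KO, against 4.47, 9.91 and 3.91 TPM in WT. In WT 2, 69.3% of the Ciart TPM was assigned to Ciart-203, a transcript of 372 bases that was at 0 in 6 of the 9 libraries. With an offset for the effective length of the gene in each library, the log2 fold change of both KO groups over WT was 0.36 (edgeR adjusted p = 0.643). The size of the Ciart difference thus depended on the length scaling of its 6 transcripts.

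Bhlhe41 and Bhlhe40 encode a pair of related basic helix-loop-helix repressors on chromosome 6 (145858243 to 145865558, minus strand, and 108660629 to 108666925, plus strand). Bhlhe41 had 27.9, 41.1 and 45.3 CPM in Homo KO and 35.7, 67.5 and 31.6 CPM in Hete KO, against 30.2, 24.0 and 29.3 CPM in WT. Each Hete KO library was above WT, and Homo KO 1 lay within the WT range. Its log2 fold change of both KO groups over WT was 0.57 (interval 0.02 to 1.13), with an unadjusted p of 0.0448 and an adjusted p of 0.211 in edgeR. Without Hete KO 2 it was 0.36, and that of Hete KO over WT was 0.27 in place of 0.69.

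Bhlhe40 had 33.0, 46.2 and 65.8 CPM in Homo KO and 59.2, 70.1 and 24.4 CPM in Hete KO, against 47.2, 56.4 and 40.5 CPM in WT. Both KO groups reached above and below WT. The log2 fold change was 0.05, with a 95% interval of -0.64 to 0.74, so differences of that size in either direction lie within the error. The coefficient of variation of Bhlhe40 was 34.1% in Homo KO and 46.6% in Hete KO, against 16.6% in WT.

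Rora, on chromosome 9 (68653786 to 69388246, plus strand), encodes the nuclear receptor that activates at ROR elements. It had 158.0, 167.5 and 168.7 CPM in Homo KO and 153.2, 230.5 and 222.4 CPM in Hete KO, against 185.7, 142.2 and 171.0 CPM in WT. Homo KO lay inside the WT range, and Hete KO 2 and 3 lay above it. Its log2 fold change of both KO groups over WT was 0.13 (interval -0.18 to 0.45; edgeR adjusted p = 0.608). Rora varied least of the 8, with a highest library 1.62 times the lowest, against 5.21 times for Ciart.

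Counted over the set, 3 of the 8 regulators had groups that did not overlap with both KO groups against WT. Hlf and Ciart were the 2 higher and Nfil3 the 1 lower, where 6.37% of all genes tested were higher and 6.06% lower without overlap, 12.4% in all. In Homo KO against WT the 4 were Tef, Hlf and Ciart higher and Nfil3 lower, against 10.9% and 11.2% of all genes, 22.1% in all. In Hete KO against WT the 4 were Hlf, Ciart and Bhlhe41 higher and Nfil3 lower, against 12.6% and 12.1%, 24.7% in all.

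At an unadjusted p under 0.05 in edgeR, Hlf, Ciart and Bhlhe41 were higher and Nfil3 lower in both KO groups, where 10.2% of all genes were higher and 12.3% lower (22.6% in all). In Homo KO, Hlf and Ciart were higher and Nfil3 lower, where 7.75% were higher and 8.68% lower (16.4% in all). In Hete KO, Tef, Hlf, Ciart and Bhlhe41 were higher and Nfil3 lower, where 9.71% were higher and 12.1% lower (21.9% in all). Without Hete KO 1, Hlf and Ciart passed edgeR in both KO groups against WT (adjusted p = 0.0112 and 0.0404), and Tef, Hlf and Ciart in Hete KO against WT (0.0393, 0.0123 and 0.0382). That fit called 5.92% of all genes in both KO groups and 5.18% in Hete KO against WT. DESeq2, on all 9 libraries, called 3 in both KO groups (Hlf, Ciart and Nfil3), 1 in Homo KO (Nfil3) and 3 in Hete KO (Hlf, Ciart and Nfil3). It called 9.7% of all genes in both KO groups, 3.34% in Homo KO and 9.77% in Hete KO against WT, out of the genes it gave an adjusted p. The median log2 fold change of the 8 was 0.45 in both KO groups over WT, and that of all genes tested was -0.01. The 8 were chosen with earlier results of these data known. Their counts and median beside all genes are therefore descriptions and not an independent contrast.

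Homo KO against Hete KO addressed whether the groups labelled by zygosity differed. None of the 8 passed edgeR, none had an unadjusted p under 0.05, where 5.44% of all genes did, and none had groups that did not overlap, where 11.4% did. DESeq2 also called 0 of the 8, and 0.00789% of all genes. The log2 fold changes were all below 0, between -0.43 for Hlf and -0.08 for Bhlhe40. Those of Dbp, Ciart, Bhlhe40, Bhlhe41 and Tef changed sign when a library was left out, with values up to 0.29 for Dbp. Hete KO had the larger coefficient of variation of the KO groups for 7 of the 8, as in Tef with 9.56% in Homo KO and 34.4% in Hete KO. Nfil3 was the exception, at 31.1% in Homo KO and 29.9% in Hete KO. Hete KO 2, which also held the most muscle RNA, was the highest of the 9 libraries for the 7 genes other than Nfil3.

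Per transcript length, the order of the 8 over all 9 libraries was Tef with 204.2 ± 45.2 TPM (SD, n = 9), Dbp with 79.5 ± 26.4, Rora with 46.9 ± 5.88, Bhlhe40 with 27.4 ± 8.28, Bhlhe41 with 12.49 ± 3.96, Hlf with 12.1 ± 4.42, Ciart with 7.28 ± 2.77 and Nfil3 with 2.17 ± 1.16 TPM. Tef was above Dbp, Rora above Bhlhe40, Bhlhe40 above Bhlhe41 and Ciart above Nfil3 in 9 of 9 libraries. Dbp was above Rora and Hlf above Ciart in 8 of 9. Bhlhe41 was above Hlf in 6 of 9, which leaves those neighbours without a clear order. Tef-205, a processed transcript of 248 bases, took 43.6% of the Tef TPM but 3.11% of its estimated counts, so the distance of Tef from Dbp rests in part on a short transcript. Over protein-coding transcripts alone, Tef averaged 58.6 ± 14.8 TPM and Dbp 48.6 ± 18.2 TPM (SD, n = 9), with Tef above Dbp in 8 of 9 libraries. Hlf, the lowest of the activators, lay near the repressor in WT 2, at 4.94 TPM against 4.35 TPM for Nfil3.

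The summed TPM of the D-box activators (Dbp, Tef and Hlf) over that of Nfil3 was 153 to 302 in Homo KO and 203 to 220 in Hete KO, against 55.4 to 88.01 in WT. Over protein-coding transcripts alone the ratio was 52.3 to 125.7 in Homo KO and 77.9 to 98.6 in Hete KO, against 20.9 to 37.2 in WT. These ratios were formed from the levels of the members and are given as a description. In TPM, Dbp and Tef overlapped between KO and WT, as with Tef at 154 TPM in Hete KO 1 and 213.9 TPM in WT 2. Hlf, the smallest part of the sum, and Nfil3, at 33 to 145 estimated counts, did not overlap. The separation of the ratio is thus not independent of the Nfil3 difference.

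**Figure D3:**
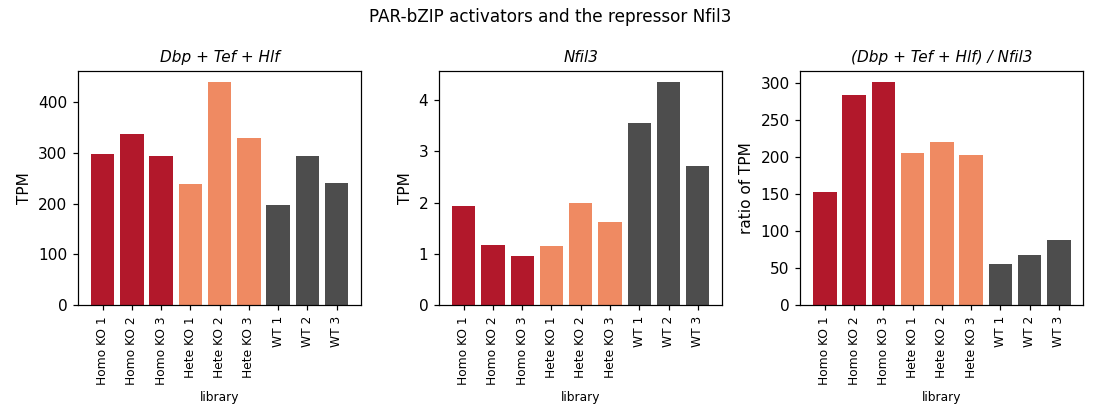
Summed TPM of Dbp, Tef and Hlf divided by the TPM of Nfil3 in each library, on a linear axis from 0, with Homo KO left, Hete KO in the middle and WT right. The 6 KO libraries lie between 153 and 302, and the 3 WT libraries between 55.4 and 88.01. The divisor Nfil3 lies below WT in all 6 KO libraries on its own.

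The estimated transcripts of some members also differed between libraries. Dbp-202, a retained-intron transcript of 815 bases that starts 2642 bases downstream of the RefSeq start, took 16.5, 27.4 and 23.6% of the Dbp TPM in Homo KO and 17.1, 9.11 and 25.3% in Hete KO, against 4.30, 0 and 6.82% in WT. All 6 KO libraries were above WT, and no test was made of these estimated shares. Tef-206 was also higher in all 6, at 0.558 to 2.04% of the Tef TPM against 0.263 to 0.527% in WT. How many transcripts of all genes separate in this way was not counted. Over all 9 libraries Dbp-202 averaged 14.5% of the Dbp TPM but 6.80% of its estimated counts. Sphk2, on the opposite strand, shares 737 bases with Dbp, and the sources used here do not say whether counting used strand. Dbp-201, the main coding transcript, averaged 39.6 ± 9.19% in Homo KO and 49.99 ± 13.3% in Hete KO, against 56.9 ± 9.60% in WT (SD, n = 3 each). Bhlhe40-201, the full coding transcript of 3113 bases, averaged 60.9 ± 7.52% in Homo KO and 71.9 ± 11.5% in Hete KO, against 81.7 ± 5.19% in WT (SD, n = 3 each). Homo KO lay below WT in each library and Hete KO overlapped WT. Bhlhe40-203, a transcript of 368 bases, took 8.67% of the Bhlhe40 TPM over all 9 libraries but 0.729% of its estimated counts. The lower Bhlhe40-201 shares thus rest in part on short transcripts with few reads. Nfil3 has 1 annotated transcript, so its level did not depend on such a division. Opposite-strand genes also overlap Tef, Ciart, Bhlhe40, Bhlhe41 and Rora.

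**Figure D4:**
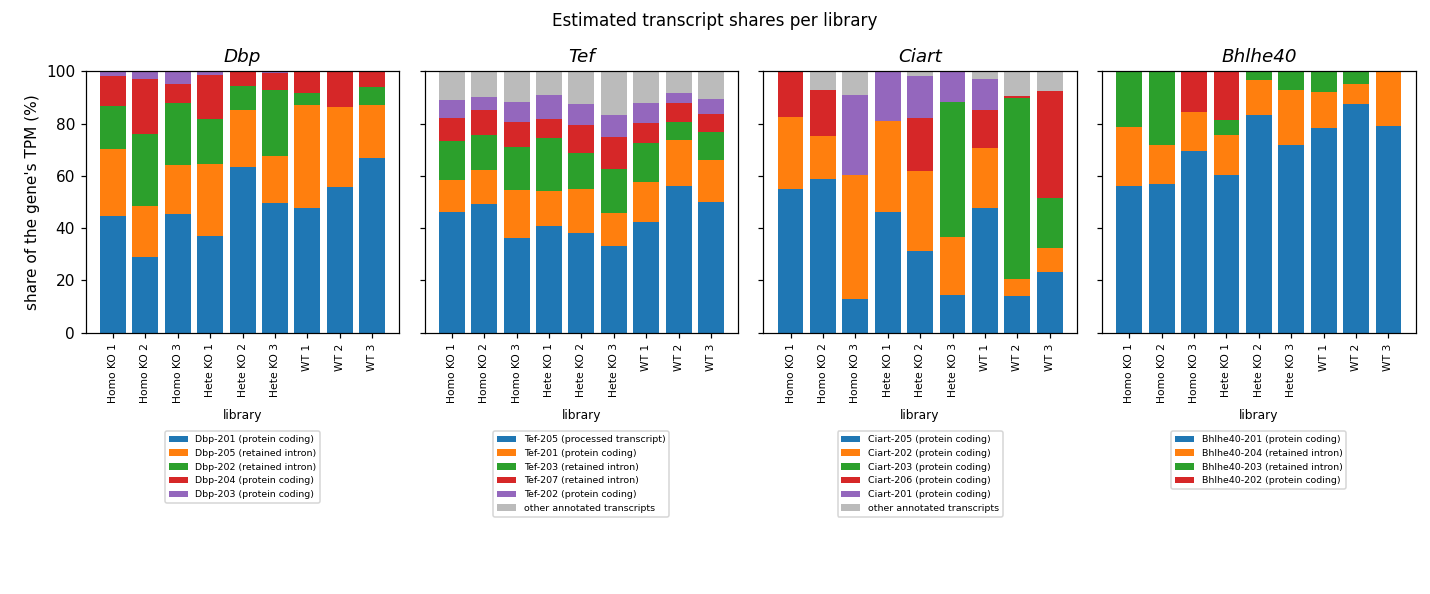
Share of each gene's TPM assigned to its annotated transcripts in each library for Dbp, Tef, Ciart and Bhlhe40, in percent, with Homo KO left, Hete KO in the middle and WT right. The Dbp-202 share is 9.11 to 27.4% in KO libraries and 0 to 6.82% in WT, and Ciart-203 reaches 69.3% in WT 2.

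The core clock genes around the 8 regulators were followed as a list of 11, and edgeR called 0 of them in each of the 4 comparisons. At an unadjusted p under 0.05 in edgeR, 4 were higher (Nr1d1, Per2, Nr1d2 and Per3) and 0 lower in both KO groups against WT, where 10.2% of all genes were higher and 12.3% lower. In Homo KO the counts were 1 higher (Nr1d1) and 1 lower (Cry1), beside 7.75% and 8.68% of all genes. In Hete KO 4 were higher (9.71%). In Homo KO against Hete KO 1 was lower (Cry1), beside 5.44% of all genes in either direction. DESeq2 called 2 higher in both KO groups (Nr1d1 and Per2), 1 in Homo KO (Nr1d1), 2 in Hete KO (Per2 and Per3) and 0 in Homo KO against Hete KO, beside the 9.7%, 3.34%, 9.77% and 0.00789% of all genes that it called. Nr1d1, which encodes the repressor at ROR elements, had 94.6, 127.2 and 159.0 CPM in Homo KO and 108.2, 130.6 and 68.2 CPM in Hete KO, against 57.0, 74.7 and 71.7 CPM in WT. Homo KO was above WT throughout, as for 10.9% of all genes, while Hete KO 3 was among the WT values. Its log2 fold change of both KO groups over WT was 0.75 (edgeR adjusted p = 0.0915).

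Arntl, which encodes BMAL1, had 5.12, 4.94 and 4.23 CPM in Homo KO and 9.53, 4.26 and 1.90 CPM in Hete KO, against 9.23, 9.54 and 5.67 CPM in WT. Homo KO lay below WT, as for 11.2% of all genes, and Hete KO overlapped both other groups. Its log2 fold change of both KO groups over WT was -0.70 (edgeR adjusted p = 0.318). The other log2 fold changes of both KO groups over WT were 0.73 for Per2, 0.57 for Per3, 0.19 for Per1 and 0.37 for Nr1d2. They were -0.34 for Cry1, -0.04 for Cry2, 0.03 for Clock, 0.39 for Npas2 and -0.26 for Rorb. The median of the 11 was 0.19. In Homo KO against WT, Nr1d1, Per2 and Nr1d2 were the 3 higher without overlap, and Arntl and Cry1 the 2 lower. The log2 fold change of Cry1 was -0.63 in Homo KO over WT (edgeR adjusted p = 0.244) and -0.04 in Hete KO over WT. In Homo KO over Hete KO it was -0.59 (edgeR adjusted p = 0.899), with groups that did not overlap.

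**Figure D5:**
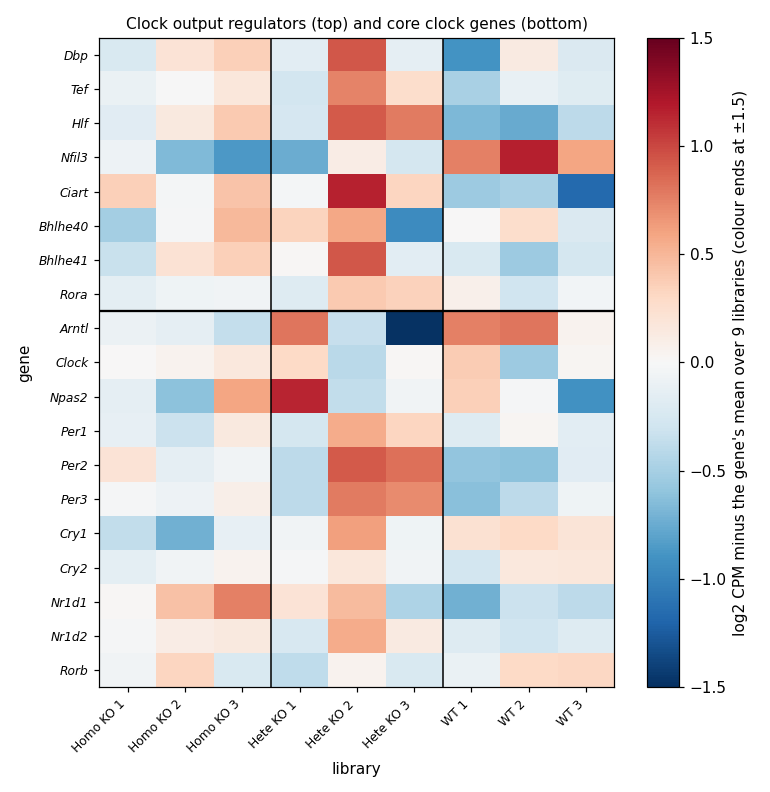
Log2 CPM of the 8 regulators and of the core clock genes in each library, relative to the mean of the gene over the 9 libraries, with Homo KO left, Hete KO in the middle and WT right. Hete KO 2 is high for 7 of the 8 regulators, and Hete KO 1 resembles WT in Arntl, at 9.53 CPM against 5.67 to 9.54 CPM in WT.

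Over the 9 libraries the regulators did not vary alike. Log2 CPM of Tef and Hlf had a Pearson r of 0.89 (Spearman rho 0.88), of Dbp and Tef 0.87 (0.77), and of Hlf and Ciart 0.81 (0.85). Hlf and Arntl had an r of -0.84 (rho -0.90), Hlf and Per3 0.93 (0.90), and Nfil3 and Nr1d1 -0.72 (-0.62). These pairs were picked from among the stronger ones. Weaker pairs were Arntl and Nr1d1 at -0.16 (-0.32), Dbp and Nfil3 at -0.28 (-0.35), and Tef and Nfil3 at -0.26 (-0.33). Dbp and Arntl had -0.32 (-0.47), Hlf and Bhlhe40 -0.06 (0.12), and Tef and Bhlhe40 0.16 (0.10). These values are descriptions over 9 libraries that share their groups, and the groups differ in several of these genes.

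Among 14181 named genes with a mean of at least 1 CPM, the genes closest to each regulator by Pearson r were Klhl26 (0.99) and Oplah (0.97) for Dbp, Pcsk5 (0.97) and Las1l (0.97) for Tef, and St6galnac5 (0.98) and Dennd2d (0.98) for Hlf. Epdr1 (0.99) and Tsc22d1 (0.97) were closest to Nfil3, Zfp422 (0.97) and Ntrk3 (0.95) to Ciart, and Ndufb8 (0.94) and Srpr (0.94) to Bhlhe40. Gid4 (0.99) and Zbtb44 (0.98) were closest to Bhlhe41, and Ranbp9 (0.96) and Acot13 (0.96) to Rora. Spearman's rho for these 16 genes was 0.88 to 1. Each is among the highest of 14181 values of r over 9 libraries, so the selection itself makes r and rho high. No relation between these genes and the regulators was tested.

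Genes known in liver and kidney as PAR-bZIP targets were listed as 9, of which 8 were tested. In both KO groups against WT, edgeR called 0 higher and 3 lower, where it called 1.52% of all genes lower, and the list median was -0.88 on the log2 scale. Part of the list lay near the floor or was highest in WT 2 and WT 3, the libraries with liver transcripts, as Cyp2a5 below. The median and the counts of lower genes therefore do not describe targets in fat alone. At an unadjusted p under 0.05 there were 1 higher and 4 lower (10.2% and 12.3% of all genes), and DESeq2 called 1 higher and 4 lower (9.7% of all genes in either direction). In each KO group alone against WT edgeR called 0. Ces1g, a carboxylesterase, had 1.22, 0.428 and 0.493 CPM in Homo KO and 2.67, 0.843 and 1.90 CPM in Hete KO, against 4.64, 9.78 and 4.99 CPM in WT (log2 fold change -2.50, edgeR adjusted p = 0.0382). Pdxk, pyridoxal kinase, was lower in every KO library (-0.57, edgeR adjusted p = 0.0395). Cyp2a5, a liver cytochrome, was also called (edgeR adjusted p = 0.0405), but its reads lay in the libraries with liver transcripts. It had 0, 0.0475 and 0 CPM in Homo KO and 0, 0 and 0.438 CPM in Hete KO, against 0.0835, 14.5 and 9.23 CPM in WT. Por, the reductase of the cytochromes, was on the other side, with 472.0, 589.3 and 594.4 CPM in Homo KO and 462.5, 643.8 and 615.7 CPM in Hete KO, against 312.1, 338.3 and 436.1 CPM in WT (0.64, edgeR adjusted p = 0.0617). All 6 KO libraries were above WT for Por, as for 6.37% of all genes, without passing the test.

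Other clock-controlled outputs, a list of 14, had 0 called higher and 1 lower by edgeR in both KO groups against WT (0.824% and 1.52% of all genes). At an unadjusted p under 0.05, 5 were higher and 2 lower (10.2% and 12.3% of all genes). DESeq2 called 4 higher and 1 lower (9.7% in either direction). The list median was -0.0083 on the log2 scale, against -0.0050 for all genes tested. Lonrf3, which encodes a LON-domain protein with RING fingers, had 5.03, 4.14 and 3.74 CPM in Homo KO and 4.08, 3.20 and 4.91 CPM in Hete KO, against 12.8, 11.1 and 6.49 CPM in WT (log2 fold change -1.28, edgeR adjusted p = 0.0395). Pnpla2, the lipase ATGL, was 0.72 higher on the log2 scale in both KO groups with no overlap (6.37% of all genes) and an edgeR adjusted p of 0.0726. It is also among the 12 adipocyte markers, of which 10 lay above WT on the fold change and 2 below (median 0.31). Their part in the Pnpla2 difference was not tested. Klf15, a Krüppel-like transcription factor, was 0.69 higher (edgeR adjusted p = 0.1003).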

How the data were processed

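The 9 deposited files, 1 per library, list transcripts. Per the file headers they hold estimated counts, fractional and without normalization, and TPM, which the authors scaled to effective length and library total. The transcript length and effective length columns, per the file headers, are other values in bases. Per the submitters' processing notes the build was mm10. Which quantifier was used, and with which strand setting, is not given in the sources used here.

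Of 113193 transcripts, 111362 (98.38%) were matched by identifier to GENCODE M21 and summed to 35071 genes, and those unmatched held 0.581 to 1.06% of a library's counts. Sums of estimated counts were rounded to whole numbers. After edgeR's filter on low counts, 17968 genes were tested in 1 fit of all 9 libraries (1 coefficient per group, 6 residual degrees of freedom, TMM, two-sided quasi-likelihood F-test), with p adjusted over all tested genes (Benjamini-Hochberg, 0.05). The scripts were tested on simulated data. R 4.3.3, edgeR 4.0.16, limma 3.58.1, DESeq2 1.42.0 and Python 3.11.15 were used. Nothing in the labels says that libraries of a group were prepared on separate days or came from separate litters, so p-values measure the spread between these libraries.

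The members and gene lists were chosen with earlier results of these data known. The named genes are the 8 members, the 2 genes most alike to each, the core clock genes (1 gene of that list is not reported here and was left out of its counts), for each comparison up to 3 of each other list with the smallest p, and Ago1. Alternatives were DESeq2, RLE scaling, 2 other filters, a length offset, fits without the group not compared, a replicate block, limma on log2(TPM + 0.5) and log2(TPM + 0.1), muscle and liver covariates, and libraries left out.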

Additional observations from a re-analysis of the deposited data

How the results depend on the processing

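The 3 libraries per group and the low counts of Nfil3 and Ciart limit what these comparisons can detect. The call of Nfil3 in both KO groups against WT held in 6 of 21 alternatives, and its log2 fold change was below 0 in all 21. Members called in both KO groups against WT, 1 by edgeR, came to 3 with DESeq2, 2 without a filter, 0 with the length offset, limma at either pseudocount, the covariates, or without the muscle or liver libraries, and 0 to 3 with 1 library left out. In Hete KO against WT, 0 by edgeR, they came to 3 with DESeq2, 1 with the block and 0 to 3 with 1 library left out, and in Homo KO to 1 with DESeq2.

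Genes called among all tested, 0 in Homo KO, 75 in Hete KO and 421 in both against WT, were 633, 1610 and 1788 with DESeq2 (2 in Homo KO against Hete KO), and 1, 258 and 759 without a filter. With the length offset there was 1 in Hete KO and 4 in both. The fits of the compared groups only gave 7 in Homo KO and 0 in Hete KO. Limma gave 0 in Hete KO and 12 (pseudocount 0.5) or 6 (0.1) in both, and the covariates gave 0 in Hete KO and 0 in both. Without the muscle libraries there were 41, 11 and 102, and without the liver libraries 2, 1 and 2. With 1 library left out the ranges were 0 to 153, 0 to 958 and 2 to 1095.

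The labels' replicate numbers were not shown to pair the libraries: deviations of same-numbered libraries correlated at -0.07 to 0.46. With the replicate block, Hlf was called in Hete KO against WT (edgeR adjusted p = 0.0492) and in both KO groups (0.0470), Nfil3 was not (0.0568), and 248 genes were called in Hete KO against WT.

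The log2 fold changes that changed sign in an alternative lay between -0.31 and 0.13 in the main fit. In Homo KO against Hete KO, Bhlhe40 came to 0.0255 with the length offset and to 0.14 and 0.15 with limma, where Dbp came to 0.0016 and 0.0017. With the covariates, Dbp came to 0.19, Nfil3 to 0.18, Ciart to 0.19 and Bhlhe40 to 0.29 there, and Bhlhe40 to -0.20 in Hete KO and -0.0537 in both against WT. Without the muscle libraries, Dbp came to 0.27, Ciart to 0.11, Bhlhe40 to 0.20 and Bhlhe41 to 0.17, and without the liver libraries Rora came to -0.0267 in both against WT. With 1 library left out, Bhlhe40 ranged over -0.27 to 0.24 in Homo KO, -0.20 to 0.45 in Hete KO and -0.10 to 0.24 in both against WT, and -0.43 to 0.21 in Homo KO against Hete KO. In the same way Rora ranged over -0.11 to 0.0816 in Homo KO against WT. In Homo KO against Hete KO the ranges were -0.45 to 0.18 for Bhlhe41, -0.55 to 0.12 for Ciart, -0.38 to 0.29 for Dbp and -0.51 to 0.0101 for Tef. The cause was not tested. Transcript shares are given per library in the report, and leaving out libraries there was not run.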

Other observations

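Genes that respond to glucocorticoids, hormones with a daily rhythm, were followed as a list of 11. With both KO groups against WT, edgeR called 0 higher and 2 lower, where it called 0.824% of all genes higher and 1.52% lower. The 2 were the metallothioneins Mt2 and Mt1, which bind metal ions. Mt2 had 6.98, 5.09 and 6.41 CPM in Homo KO and 6.16, 10.2 and 13.7 CPM in Hete KO, against 21.4, 19.4 and 26.1 CPM in WT (log2 fold change -1.51, edgeR adjusted p = 0.0265). Mt1 was 0.97 lower on the log2 scale (-0.97, edgeR adjusted p = 0.0436), and every KO library lay below WT for both genes, as for 6.06% of all genes. Klf9 went the other way, with every KO library above WT, as for 6.37% of all genes (log2 fold change 0.64, edgeR adjusted p = 0.0740). At an unadjusted p under 0.05 in edgeR, 1 was higher (Klf9) and 4 were lower (10.2% and 12.3% of all genes). DESeq2 called 1 higher (Klf9) and 4 lower (9.7% of all genes in either direction).

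Immediate early genes, which respond within minutes to handling and other stimuli, were followed as 15, and hypoxia-responsive genes as 12. In both KO groups against WT, edgeR called 0 of either list. At an unadjusted p under 0.05, 5 immediate early genes were lower and 4 hypoxia-responsive genes higher, where 12.3% of all genes were lower and 10.2% higher. Beside the 9.7% of all genes that it called, DESeq2 called 2 lower (Atf3 and Junb) and 3 higher (Ndrg1, Pdk1 and Bnip3). Junb had a log2 fold change of -1.08 (edgeR adjusted p = 0.0619) and Ndrg1 of 0.83 (0.0534). The B cell and lymph node markers, 9 in all, had 1 called higher by edgeR (0.824% of all genes). The 8 mammary and skin epithelium markers had 3 tested and 0 called by edgeR, with 1 higher at an unadjusted p under 0.05 (10.2% of all genes). DESeq2 called 1 of them higher and 1 lower (9.7% of all genes in either direction).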
